A study of Mus musculus with 6 samples.

Results

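The p53 pathway genes examined here were 31 genes, named as a list: the gene of p53, its main inhibitors, and genes that p53 is known to activate in apoptosis, DNA repair, growth arrest and metabolism. Each gene was represented by 1 probe set, the brightest single-gene probe set over the 6 arrays, and 28 of the 31 genes had one, out of 18194 genes in all. Trp53 itself, the pro-apoptotic Bax and the stress cytokine gene Gdf15 had no such probe set in the annotation used and were not analysed here. RNA came from immortalized embryonic fibroblasts of mixed mouse strain background and was read on Affymetrix M430 2.0 arrays. All cells were KDM5A-/-, lacking a demethylase that removes methyl groups from lysine 4 of histone H3. They carried an empty vector (EV cells), wild-type KDM5A put back (WT cells) or the catalytic-site mutant KDM5A-H483A (H483A cells), with 2 arrays per group. The cultures were subconfluent, and the labels name no drug or DNA-damaging agent. How the cells were immortalized, whether their p53 was intact, and what drove the re-introduced KDM5A are not stated in the labels or notes read here.

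The p53 protein is a transcription factor that is held at a low level by the ubiquitin ligase Mdm2 and is released when DNA is damaged or cells are stressed. It then binds paired decamers in the DNA near its targets and raises their transcription, and Mdm2 is among these targets, which closes a feedback loop. Other targets halt the cell cycle, repair DNA, limit growth signalling or start apoptosis, and in fibroblasts arrest is the better known outcome.

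Values are log2 RMA signals, so a difference of 1 is a doubling of signal, and a level is compared only between arrays for the same probe set. The 10 fibroblast markers lay between 3.80 and 13.39, with Lum, at 3.80 to 6.09, the lowest of them. The 6 macrophage markers lay between 2.76 and 6.40, the 5 endothelial markers between 2.93 and 6.65, the 6 epithelial markers between 2.67 and 6.22 and the 5 skeletal muscle markers between 3.10 and 6.45. These ranges describe separate probe sets and do not rank their genes. The 2 arrays of each KDM5A group lay further apart than the 2 EV arrays. The first array minus the second gave a median fibroblast marker difference of 0.20 in EV cells, 1.00 in WT cells and 0.93 in H483A cells. Over all genes, 2.19% were higher by at least 0.5 in the first EV array and 1.6% in the second. The corresponding shares were 6.63% and 4.52% for WT, and 6.79% and 8.08% for H483A. The labels name biological replicates but give no detail on separate cultures, and p-values here cover only the variation among these 6 samples.

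Sequence upstream of the start site is shown for 5 members of contrasting pattern. Mdm2, Ccng1 and Ei24 had both arrays of each KDM5A group above both EV arrays, and Btg2 and Ddit4l had the widest gaps between arrays of 1 group. RefSeq's promoter table (GRCm38.p6) held 20 of the 28 measured members. Each sequence is the 250 bases before the start, 5′ to 3′ on the gene's strand, and capitals mark matches to the p53 decamer consensus, which reads the same on both strands.
Mdm2, chr10:117710759-117711008, minus strand: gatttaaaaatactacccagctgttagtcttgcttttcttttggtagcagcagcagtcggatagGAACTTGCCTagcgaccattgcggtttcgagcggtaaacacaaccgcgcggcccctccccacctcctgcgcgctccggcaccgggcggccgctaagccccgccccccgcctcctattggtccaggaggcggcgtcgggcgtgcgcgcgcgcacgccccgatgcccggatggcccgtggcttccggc
Ccng1, chr11:40755287-40755536, minus strand: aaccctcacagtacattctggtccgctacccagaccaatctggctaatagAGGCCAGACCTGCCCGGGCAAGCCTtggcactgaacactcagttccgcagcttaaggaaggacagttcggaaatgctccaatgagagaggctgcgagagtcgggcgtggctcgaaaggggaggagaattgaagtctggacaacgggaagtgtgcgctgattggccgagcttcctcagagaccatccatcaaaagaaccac
Ei24, chr9:36797335-36797584, minus strand: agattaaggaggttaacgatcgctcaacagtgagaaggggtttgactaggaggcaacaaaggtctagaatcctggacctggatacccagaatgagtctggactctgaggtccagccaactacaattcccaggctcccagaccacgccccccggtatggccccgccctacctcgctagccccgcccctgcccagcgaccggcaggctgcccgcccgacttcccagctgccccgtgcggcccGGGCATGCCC
Btg2, chr1:134079156-134079405, minus strand: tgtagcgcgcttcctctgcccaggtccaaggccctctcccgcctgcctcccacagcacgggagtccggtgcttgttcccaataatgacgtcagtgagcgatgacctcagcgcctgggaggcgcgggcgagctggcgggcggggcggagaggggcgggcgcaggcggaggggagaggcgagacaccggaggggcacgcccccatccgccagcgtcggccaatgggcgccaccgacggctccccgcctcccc
Ddit4l, chr3:137623422-137623671, plus strand: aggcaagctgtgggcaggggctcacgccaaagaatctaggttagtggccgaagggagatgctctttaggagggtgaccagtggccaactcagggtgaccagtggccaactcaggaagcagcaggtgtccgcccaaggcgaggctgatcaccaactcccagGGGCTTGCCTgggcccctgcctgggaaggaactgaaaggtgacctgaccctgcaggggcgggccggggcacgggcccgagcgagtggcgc

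An exact decamer match began 186 bases before the start of Mdm2, 185 before Ccng1, 10 before Ei24 and 90 before Ddit4l, and the Btg2 window held none. Some genes had more than 1 start and so more than 1 window. At least 1 exact decamer lay in any window of 9 of the 20 members (45%), against 8.2% of the 27025 genes in the table. Counted by window, the shares were 31.03% of 29 member windows and 7.13% of all 32851. A paired site was counted where 2 decamers, at most 13 bases apart, had 2 or fewer mismatches in total outside the fixed C and G of each decamer. Such a site lay upstream of 3 members, Ccng1, Sesn1 and Gadd45a (15%), against 3.87% of all genes. By window, the shares were 10.34% and 3.34%. The capitals of Ccng1 cover 2 overlapping paired sites, the better of which had 1 mismatch. A match describes the letters of the window, and p53 binding was not measured in these cells.

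No member passed the threshold (limma, adjusted p under 0.05) in any comparison, and neither did any other gene (0% of 18194). The smallest adjusted p was 1 for WT against EV, 0.999 for H483A against EV and 0.928 for H483A against WT. In WT cells, 19 of 28 members had a log2 fold change above 0 (51.3% of all genes) and 9 below it (48.7%), with a median of 0.13 against 0.00 over all genes. In H483A cells 18 of 28 lay above (50.2% of all genes) and 10 below (49.7%), with a median of 0.11 against 0.00. Both comparisons use the same EV arrays. Between the 2 KDM5A forms, 14 members lay on each side of 0 (48.4% of all genes above it), with a median of 0.03.

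Both WT arrays lay above both EV arrays for 10 members (16.5% of all genes) and below them for 1 (15.4%). For H483A against EV the counts were 8 (13.6%) and 1 (14.6%), and for H483A against WT 4 (14.9%) and 4 (16.1%). Both counts against EV use the same EV arrays. The share of all genes with all 4 KDM5A arrays above both EV arrays was not counted. Whether members show that pattern more often than other genes is therefore not known. At an unadjusted p under 0.05 (limma), 3 members were higher in WT cells (1.51% of all genes), namely Ccng1, Tnfrsf10b and Eda2r, and Mdm4 was lower (1.01%). In H483A cells 3 were higher (0.967%), namely Ccng1, Mdm2 and Perp, and 0 lower (0.687%). Between the forms 0 were higher (1.87%) and 2 lower in H483A cells (1.95%), namely Tnfrsf10b and Steap3.

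The medians rested on single arrays. For WT against EV the median was 0.0006 without the first WT array, 0.30 without the second and 0.26 without the first EV array. For H483A against EV it was -0.0039 without the first H483A array, 0.27 without the second, 0.19 without the first EV array and 0.0081 without the second. Between the forms it was -0.13 without the second WT array, -0.11 without the first H483A array, 0.13 without the first WT array and 0.07 without the second H483A array. The unadjusted counts also moved when an array of a compared group was left out, and so did the share of all genes that passed. Those counts rest on a group of 1 array and are not given. With only the 2 groups compared in the fit, 7 members passed for WT against EV (3.15% of all genes). There were 4 for H483A against EV (1.57%) and 1, Tnfrsf10b, between the forms (2.29%).

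**Figure D1:**
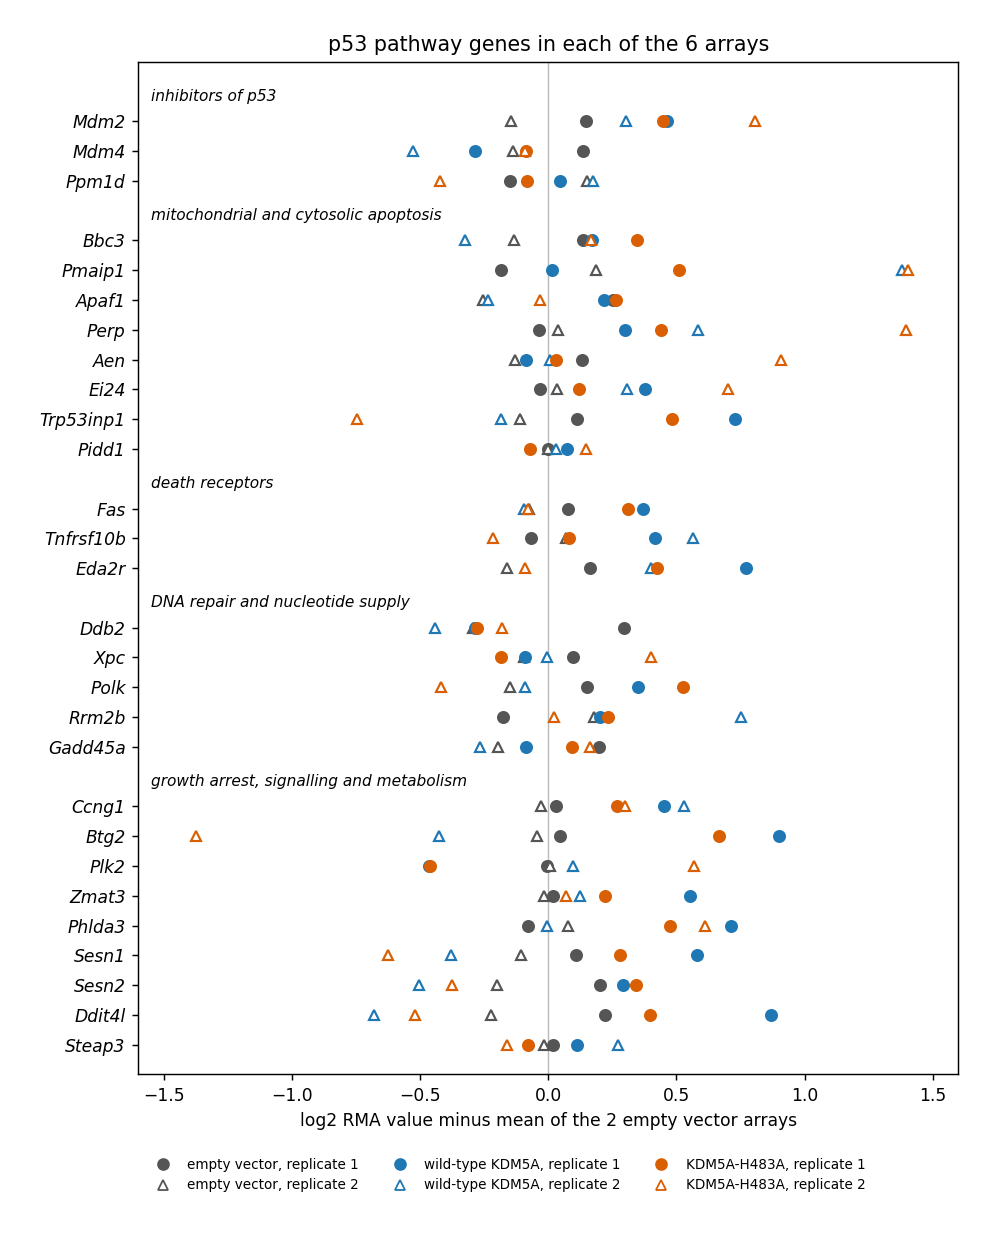
Log2 RMA value of each of the 28 measured p53 pathway genes in each array, minus the mean of the 2 EV arrays of that gene, by role; circles are replicate 1 and triangles replicate 2. Mdm2, Perp, Ei24, Ccng1 and Zmat3 have all 4 KDM5A arrays to the right of both EV arrays, a pattern not counted over all genes. Btg2 has its 2 H483A arrays at 8.89 and 6.85, on either side of the EV arrays.

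Of the inhibitors of p53, Mdm2 was higher on average with either form of KDM5A, Mdm4 was lower in WT cells, and Ppm1d showed neither. Mdm2, the ubiquitin ligase that marks p53 for destruction, stood at 8.13 and 7.83 in EV cells, 8.44 and 8.28 in WT cells, and 8.43 and 8.79 in H483A cells. The 4 KDM5A arrays all lay above the 2 EV arrays. The Mdm2 log2 fold change was 0.38 (SE 0.18, 95% CI -0.04 to 0.81, limma adjusted p = 1, unadjusted p = 0.0714) for WT. For H483A it was 0.63, or 1.55-fold (SE 0.18, 95% CI 0.20 to 1.06, limma adjusted p = 0.999, unadjusted p = 0.011). The forms differed by 0.24 (95% CI -0.18 to 0.67), which includes 0. The second Mdm2 probe set, at 7.61 and 6.68 in EV cells, 7.59 and 7.19 in WT cells and 7.40 and 7.49 in H483A cells, overlapped between groups, since its first EV array was the highest of the 6. In bulk RNA, more signal per cell and more cells with signal cannot be told apart.

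Mdm4, the relative of Mdm2 that blocks p53's activation domain, stood at 5.68 and 5.40 in EV cells, 5.25 and 5.01 in WT cells, and 5.45 and 5.45 in H483A cells. Both WT arrays lay below the other 4. The log2 fold change of WT against EV cells was -0.41 (SE 0.15, 95% CI -0.77 to -0.04, limma adjusted p = 1, unadjusted p = 0.0349). Of the 3 other Mdm4 probe sets, the second brightest had a difference of 0.02 in that comparison and the other 2 had 0.05 and -0.48. Ppm1d, a phosphatase that switches off p53 and its upstream kinases, ranged from 6.80 to 7.40, with differences of 0.11 for WT and -0.25 for H483A against EV. Both H483A arrays of Ppm1d, at 7.14 and 6.80, lay below both WT arrays, at 7.27 and 7.40 (difference -0.36, 95% CI -0.78 to 0.05). Of all genes, 16.1% had this pattern. A second Ppm1d probe set had the other sign in each comparison. It gave -0.23 for WT and 0.12 for H483A against EV, and 0.34 between the forms.

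Of the 8 measured genes of mitochondrial and cytosolic apoptosis, Pmaip1 and Perp had the largest average differences from EV in both KDM5A groups. In WT cells 5 of the 8 were above 0 (median 0.16), against 51.3% of all genes, and 3 had both arrays above both EV arrays, against 16.5%. In H483A cells 7 were above 0 (median 0.33), against 50.2% of all genes, and 4 had both arrays above both EV arrays, against 13.6%. Perp, a membrane protein of desmosomes that also promotes p53-dependent death, stood at 4.91 and 4.98 in EV cells, 5.25 and 5.53 in WT cells, and 5.39 and 6.34 in H483A cells. Its 2 EV arrays were close together and lowest, and the second H483A array was highest. The log2 fold change was 0.44 (95% CI -0.28 to 1.17) for WT and 0.92, or 1.89-fold, for H483A (SE 0.30, 95% CI 0.19 to 1.64, limma adjusted p = 0.999, unadjusted p = 0.0206). Without the second H483A array the difference from EV was 0.44 (limma unadjusted p = 0.0504). Between the forms the difference was 0.48, and -0.0011 without that array.

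Pmaip1, which encodes the BH3-only protein Noxa, an antagonist of Mcl-1, stood at 4.77 and 5.14 in EV cells, 4.97 and 6.33 in WT cells, and 5.46 and 6.36 in H483A cells. The second array was the higher one in all 3 groups, and the first WT array lay between the EV arrays. The log2 fold change was 0.70 (SE 0.48, 95% CI -0.46 to 1.85) for WT and 0.96 (SE 0.48, 95% CI -0.20 to 2.11) for H483A, both with intervals that include 0. The WT difference was 0.01 without the second WT array and 1.38 without the first. The H483A difference was 0.51 without the second H483A array. The difference between the forms, 0.26, had the other sign without the first WT array (-0.42) or the second H483A array (-0.19). Bbc3, the gene of the BH3-only protein Puma, ranged from 5.12 to 5.79, with differences of -0.08 and 0.25 from EV for WT and H483A.

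Ei24, an endoplasmic reticulum protein linked to p53-induced death and autophagy, stood at 7.74 and 7.81 in EV cells, 8.15 and 8.08 in WT cells, and 7.89 and 8.47 in H483A cells. All 4 KDM5A arrays lay above both EV arrays, with differences of 0.34 (95% CI -0.14 to 0.82) and 0.41 (95% CI -0.07 to 0.89). Aen, a nuclease that helps degrade DNA in dying cells, stood at 7.32 and 7.06 in EV cells, 7.10 and 7.19 in WT cells and 7.22 and 8.10 in H483A cells. A single array, the second of H483A, was high, and the difference between the forms was 0.51 (95% CI -0.17 to 1.19). Trp53inp1, a nuclear protein that aids p53 in stressed cells, stood at 9.38 and 9.16 in EV cells, 10.00 and 9.09 in WT cells and 9.76 and 8.53 in H483A cells. Its highest and lowest values both came from KDM5A arrays, and against EV the difference was 0.27 for WT but -0.19 without its first array. For H483A it was -0.13, but 0.48 without its second array. Apaf1, the scaffold of the apoptosome, ranged from 6.26 to 6.78, and Pidd1, a death-domain scaffold that activates a caspase, from 5.39 to 5.60.

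**Figure D2:**
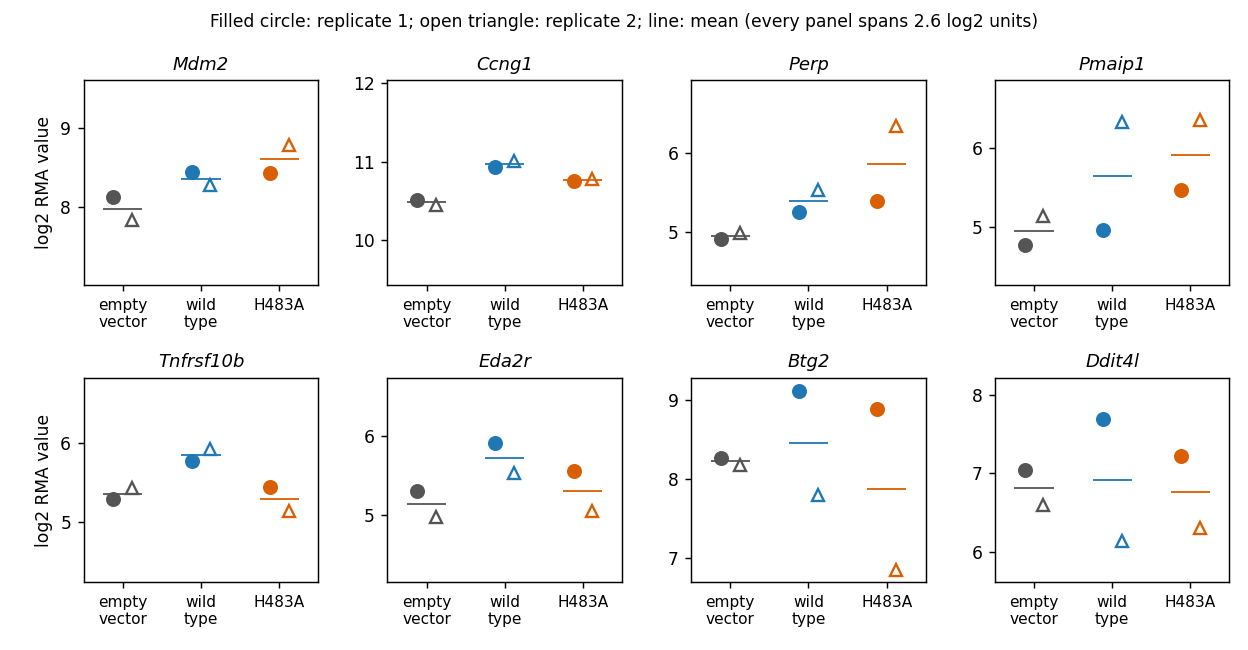
Log2 RMA values of 8 p53 pathway genes in the 6 arrays, by group; each line is the mean of 2 arrays and every panel has the same height. Mdm2, Ccng1 and Perp have all KDM5A arrays above both EV arrays, Tnfrsf10b and Eda2r have both WT arrays above both EV arrays, and Btg2 and Ddit4l have wide gaps between the arrays of a KDM5A group.

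Of the 3 death receptor genes, Tnfrsf10b and Eda2r had both WT arrays above both EV arrays (16.5% of all genes did), and Fas did not. The median difference of the 3 was 0.49 for WT against EV, 0.12 for H483A against EV and -0.42 for H483A against WT, against 0.00, 0.00 and -0.01 over all genes. The first and last of these use the same WT arrays. Tnfrsf10b, the mouse receptor of the death ligand TRAIL, stood at 5.29 and 5.43 in EV cells, 5.78 and 5.93 in WT cells, and 5.44 and 5.14 in H483A cells. Both WT arrays lay above the other 4 arrays. The log2 fold change was 0.49, or 1.41-fold, against EV (SE 0.15, 95% CI 0.13 to 0.86, limma adjusted p = 1, unadjusted p = 0.0162). H483A differed from WT by -0.56 (SE 0.15, 95% CI -0.92 to -0.19, limma adjusted p = 0.928, unadjusted p = 0.00918), the smallest unadjusted p of any member between the forms. In a second Tnfrsf10b probe set, with 4.79 and 4.63 in EV cells, 5.25 and 4.57 in WT cells and 4.71 and 4.70 in H483A cells, the first WT array was highest and the second lowest. Its difference between the forms was -0.21.

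Eda2r, a receptor of an ectodysplasin isoform, stood at 5.30 and 4.97 in EV cells, 5.91 and 5.53 in WT cells, and 5.56 and 5.04 in H483A cells. The WT arrays lay above both EV arrays, whereas the H483A arrays overlapped both other groups. Its log2 fold change was 0.59 for WT (SE 0.23, 95% CI 0.03 to 1.14, limma adjusted p = 1, unadjusted p = 0.0406) and 0.17 for H483A (95% CI -0.39 to 0.72), and the difference between the forms was -0.42 (95% CI -0.97 to 0.13). Fas, the receptor of Fas ligand, ranged from 4.32 to 4.78, its mean signal was at percentile 48.4 among all probe sets, and all 3 groups overlapped.

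The 5 genes of DNA repair and nucleotide supply lay on both sides of EV. In WT cells 2 of 5 were above 0 (median -0.05), against 51.3% of all genes. In H483A cells 4 of 5 were (median 0.11), against 50.2%. In the main fit, an unadjusted p under 0.05 (limma) was found for 0 of the 5. Of all genes, 2.52%, 1.65% and 3.81% had one in the 3 comparisons. Rrm2b, the p53-induced subunit of ribonucleotide reductase, which makes deoxynucleotides for repair, stood at 6.83 and 7.18 in EV cells, 7.21 and 7.76 in WT cells, and 7.24 and 7.03 in H483A cells. Both WT arrays lay above both EV arrays, the lower of them narrowly (difference 0.48, 95% CI -0.06 to 1.01). A second Rrm2b probe set, with values between 3.50 and 4.19, gave 0.43 in that comparison, with an unadjusted p under 0.05 (limma). Its mean signal was at percentile 33.7 among all probe sets. Weaker Rrm2b probe sets, at percentiles 0.33 and 2.67, gave -0.05 and 0.16. With the replicate block, the first Rrm2b probe set also had an unadjusted p under 0.05 (limma) for WT against EV. Xpc, which detects bulky lesions for nucleotide excision repair, ranged from 5.44 to 6.02 and Gadd45a, a stress sensor with roles in arrest and repair, from 4.70 to 5.17. Ddb2, which recognizes ultraviolet damage, ranged from 4.07 to 4.81, and its mean signal was at percentile 45.2 among all probe sets. Polk, a translesion DNA polymerase, ranged from 7.11 to 8.05, and both ends of its range were H483A arrays.

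Among the 9 measured genes of growth arrest, signalling and metabolism, Ccng1 had replicate gaps of at most 0.08 in all 3 groups, and Btg2 had a gap of 2.04 in H483A cells. In WT cells 7 of 9 were above 0 (median 0.19), against 51.3% of all genes. In H483A cells 4 of 9 were (median -0.02), against 50.2%, and between the forms 3 of 9 (median -0.19), against 48.4%. Ccng1, cyclin G1, which recruits a phosphatase to Mdm2, stood at 10.51 and 10.45 in EV cells, 10.93 and 11.01 in WT cells, and 10.75 and 10.78 in H483A cells. The 3 groups did not overlap, with WT highest and EV lowest, a pattern not counted over all genes. The log2 fold change was 0.49, or 1.40-fold, for WT (SE 0.12, 95% CI 0.21 to 0.77, limma adjusted p = 1, unadjusted p = 0.00488) and 0.28 for H483A (SE 0.12, 95% CI 0.00 to 0.57, limma adjusted p = 0.999, unadjusted p = 0.0477). Among the alternatives that left no single array out, the unadjusted p (limma) stayed under 0.05 in all for WT. For H483A it did so only with the mean over all probe sets (0.0142), and it was 0.0642 with the replicate block. The difference between the forms was -0.21 (95% CI -0.49 to 0.08), which includes 0. The other 2 Ccng1 probe sets had differences of 0.40 and 0.80 for WT and 0.29 and 0.53 for H483A. In both, all 4 KDM5A arrays lay above both EV arrays.

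Zmat3, a p53-induced zinc finger protein that binds RNA, stood at 7.76 and 7.73 in EV cells, 8.30 and 7.87 in WT cells, and 7.97 and 7.81 in H483A cells. All 4 KDM5A arrays were higher than both EV arrays, by 0.34 on average for WT (95% CI -0.07 to 0.75) and 0.14 for H483A (95% CI -0.26 to 0.55). Phlda3, which restrains the kinase Akt at the membrane, stood at 8.23 and 8.39 in EV cells, 9.02 and 8.30 in WT cells and 8.78 and 8.92 in H483A cells. Both H483A arrays were above both EV arrays (difference 0.54, 95% CI -0.03 to 1.12). The WT difference was 0.35, and -0.01 without the first WT array.

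Steap3, an endosomal reductase of iron, stood at 5.91 and 5.88 in EV cells, 6.01 and 6.17 in WT cells, and 5.82 and 5.74 in H483A cells. WT arrays lay above the EV arrays and H483A arrays below them, within a total range of 0.43, and 2.23% of all genes had the 2 forms on opposite sides in this way. The difference between the forms was -0.31 (SE 0.12, 95% CI -0.61 to -0.01, limma adjusted p = 0.928, unadjusted p = 0.0436). Among the alternatives that left no single array out, the unadjusted p (limma) stayed under 0.05 only with centred arrays. It was 0.0568 with the replicate block. Plk2, a kinase of the cell cycle and stress response, stood at 8.46 and 8.47 in EV cells, 7.99 and 8.56 in WT cells, and 8.00 and 9.03 in H483A cells. Both first KDM5A arrays were below EV and both second arrays above it, so the WT difference was -0.18 but 0.10 without the first WT array. The H483A difference was 0.05 but -0.46 without the second H483A array. A second Plk2 probe set stood at 5.50 and 5.35 in EV cells, 5.56 and 5.54 in WT cells and 5.56 and 6.07 in H483A cells. There all 4 KDM5A arrays lay above both EV arrays, and the WT difference was 0.12.

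**Figure D3:**
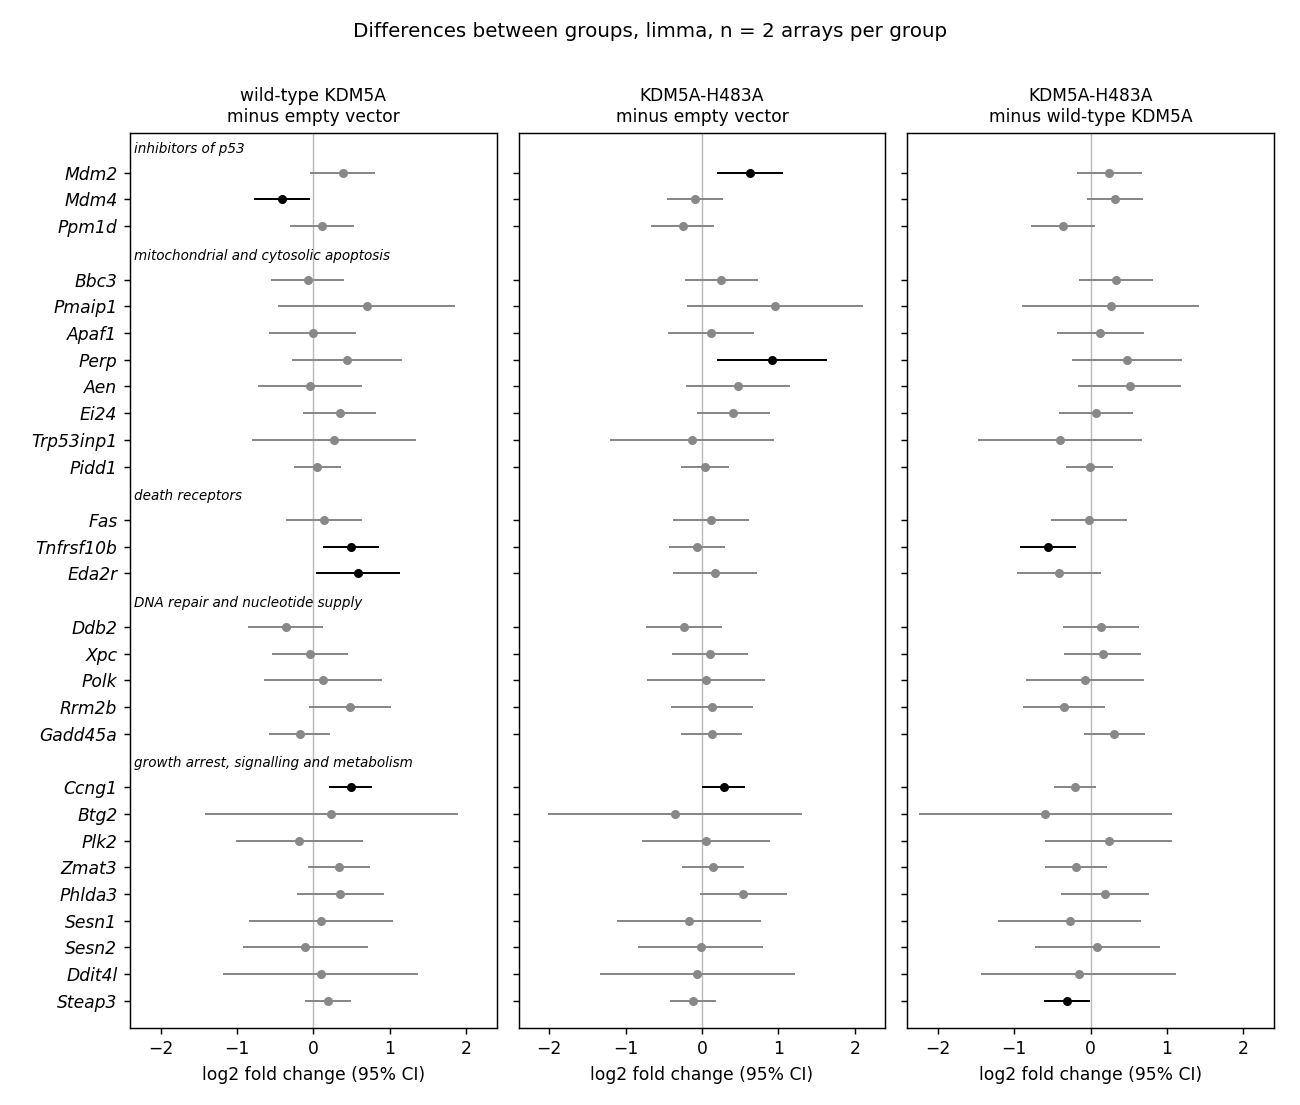
Log2 fold change of each measured p53 pathway gene (points) with its 95% confidence interval (bars) from limma, n = 2 arrays per group, in the 3 comparisons; black marks intervals that exclude 0, before any adjustment. The black points are Mdm4, Tnfrsf10b, Eda2r and Ccng1 on the left, Mdm2, Perp and Ccng1 in the middle, and Tnfrsf10b and Steap3 on the right; no gene passed after adjustment (limma adjusted p of at least 0.928).

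Btg2, Ddit4l, Sesn1 and Sesn2 differed more between the arrays of a group than between groups. Btg2, an antiproliferative gene that recruits the deadenylation machinery to mRNA, stood at 8.27 and 8.18 in EV cells, 9.13 and 7.80 in WT cells, and 8.89 and 6.85 in H483A cells. In both KDM5A groups the first array lay above the EV arrays and the second below them. A second Btg2 probe set did the same, with 8.09 and 7.95 in EV cells, 8.64 and 7.48 in WT cells and 8.66 and 7.18 in H483A cells. Ddit4l, an inhibitor of mTOR signalling, stood at 7.04 and 6.60 in EV cells, 7.69 and 6.14 in WT cells, and 7.22 and 6.30 in H483A cells, again with the first KDM5A arrays highest and the second lowest. The stress-induced mTOR inhibitors Sesn1 and Sesn2 followed the same order, Sesn1 between 6.18 and 7.38 and Sesn2 between 6.61 and 7.45. In the other Ddit4l probe sets the first KDM5A arrays were also highest, but the second KDM5A arrays were not both lowest. The H483A difference from EV was 0.38 and 0.31 there, against -0.06 in the first probe set. In a second Sesn2 probe set an EV array was lowest, at 5.22. The intervals for these 4 genes included 0 in every comparison and were wide, -1.42 to 1.90 for Btg2 in WT cells against EV.

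Counted over replicates, the first array exceeded the second by at least 0.5 in both KDM5A groups for 5 members, Btg2, Ddit4l, Sesn1, Sesn2 and Trp53inp1 (3.25% of all genes did so). The second exceeded the first for Pmaip1 and Plk2 (1.67% of all genes). In EV cells the differences between first and second array were 0.09 for Btg2, 0.45 for Ddit4l, 0.21 for Sesn1, 0.40 for Sesn2, 0.22 for Trp53inp1, -0.37 for Pmaip1 and -0.01 for Plk2. They had the same sign as in the KDM5A groups for all 7 genes and were smaller. Gaps of at least 1 were found for 0 members in EV cells (0.115% of all genes higher in the first array and 0.033% lower). In WT cells Btg2 and Ddit4l passed 1 upward (1.47% of all genes) and Pmaip1 downward (0.379%). In H483A cells Btg2 and Trp53inp1 did so upward (1.46%) and Plk2 downward (0.934%). For Btg2 the gap was 1.33 in WT cells and 2.04 in H483A cells, and for Pmaip1 it was -1.36 and -0.89. The median absolute gap was 0.24 over the members in EV cells, 0.40 in WT cells and 0.38 in H483A cells, against 0.13, 0.18 and 0.19 over all genes. Fibroblast markers differed between the same arrays. Of the 10 markers, the collagen gene Col3a1 had the widest gap in both KDM5A groups. In replicate order, it stood at 12.70 and 12.35 in EV cells, 13.13 and 10.51 in WT cells and 12.90 and 10.24 in H483A cells. All 10 fibroblast markers were higher in the first of the WT arrays, 7 in the first of the H483A arrays and 9 in the first of the EV arrays. Their summed level (log2) was 15.19 and 14.39 in WT cells, 15.11 and 14.61 in H483A cells, and 14.97 and 14.82 in EV cells. The part of this difference in the p53 target values was not tested.

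**Figure D4:**
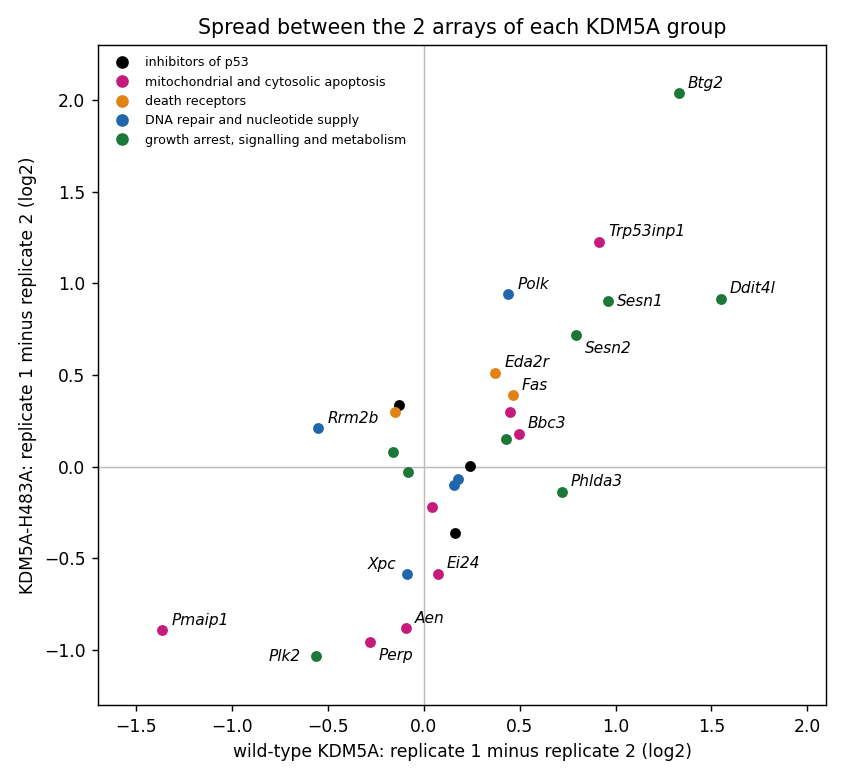
Difference between replicate 1 and replicate 2 (log2) for each measured p53 pathway gene, with WT on the horizontal and H483A on the vertical axis, coloured by role; genes at least 0.45 from 0 on either axis are named. Btg2 lies at 1.33 and 2.04 and Pmaip1 at -1.36 and -0.89, while Ccng1, unnamed near the origin, lies at -0.08 and -0.03.

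Other genes of the pathway were read from lists of further p53 targets and of p53 regulators. Of 34 measured further targets 0 passed the threshold (limma). In WT cells 22 were above 0 (median 0.09), against 51.3% of all genes (median 0.00). In H483A cells 23 were above 0 (median 0.06), against 50.2% of all genes (median 0.00). Cdkn1a, the gene of the cell cycle inhibitor p21 and the best known p53 target, stood at 9.35 and 9.00 in EV cells, 9.92 and 9.40 in WT cells, and 9.69 and 9.54 in H483A cells. The 4 KDM5A arrays were above both EV arrays, with differences of 0.49 (95% CI -0.02 to 1.00, limma adjusted p = 1, unadjusted p = 0.0577) and 0.44 (95% CI -0.07 to 0.96, limma adjusted p = 0.999, unadjusted p = 0.0782), and the forms differed by -0.05 (95% CI -0.56 to 0.47). Crip2, a LIM-domain protein, stood at 7.38 and 7.53 in EV cells, 8.01 and 8.03 in WT cells and 7.78 and 8.47 in H483A cells, with differences of 0.56 (95% CI 0.01 to 1.11) and 0.66 (95% CI 0.11 to 1.21) from EV. Ak1, an adenylate kinase, had differences of 0.47 (95% CI 0.04 to 0.90) and 0.41 (95% CI -0.03 to 0.84). Between the forms, Fbxw7, a ubiquitin ligase subunit, had 0.64 (95% CI 0.13 to 1.15) and Dram1, a lysosomal membrane protein of autophagy, -0.28 (95% CI -0.59 to 0.04).

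Of 30 measured regulators and cofactors of p53, 0 passed the threshold (limma). In WT cells 18 were above 0 (median 0.13), against 51.3% of all genes (median 0.00). In H483A cells 16 were above 0 (median 0.05), against 50.2% of all genes (median 0.00). Between the forms 21 were lower in H483A cells (51.6% of all genes), with a median of -0.08. Crebbp, an acetyltransferase that acts with p53, stood at 8.83 and 8.79 in EV cells, 9.00 and 9.26 in WT cells, and 8.69 and 8.55 in H483A cells. Its 2 forms of KDM5A lay on opposite sides of EV, as they did for 2.23% of all genes. These values are from the brightest of its 4 probe sets. The forms differed by -0.51 (95% CI -0.85 to -0.17, limma adjusted p = 0.928, unadjusted p = 0.0104). Prmt5, an arginine methyltransferase of p53, had 0.45 in that comparison (95% CI 0.09 to 0.80). It also had the forms on opposite sides of EV, with H483A above and WT below. Trp53bp1, a scaffold at DNA breaks, had 0.33 in WT cells (95% CI -0.02 to 0.69), and Crebbp had 0.32 there (95% CI -0.02 to 0.66). In H483A cells the smallest p values belonged to Trp53bp2, a partner of p53 in apoptosis (0.33, 95% CI -0.12 to 0.78), and Ing1, a reader of histone H3 methylation (-0.21, 95% CI -0.51 to 0.10).

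The 95% confidence interval of a log2 fold change had a median reach on each side of 0.52 over the 28 members. The absence of calls with 2 arrays per group does not show that the genes were unchanged.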

How the data were processed

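Total RNA of 6 samples was hybridised to 1 array each. The deposited values are log2 signals, and the submitters' processing notes name RMA. That method corrects background, equalizes the distributions of arrays and summarises each probe set, which hides shifts common to all genes and compresses weak signals. The sources used here name no version of it. Arrays carry no molecule counts, so their number limits the precision.

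The 45101 probe sets were named through the platform annotation, and 34958 had 1 gene symbol. Probe sets ending in _x_at, which can cross-hybridize, were used only where a gene had no other. Limma 3.58.1 (R 4.3.3) fitted 1 mean per group over all 6 arrays without a replicate block, with 3 residual degrees of freedom, and p-values were adjusted over all 18194 genes (Benjamini-Hochberg, two-sided, threshold 0.05). The fit was tested on simulated data. The members, gene lists and tests were chosen with earlier results of these data known. Values in every array were given for Mdm2 and for members with an unadjusted p under 0.05, non-overlapping groups at least 0.5 apart, or replicates at least 1 apart, and additionally, chosen after their values were seen, for Ei24, Zmat3 and Rrm2b. Of the other lists, Cdkn1a and the 2 genes with the smallest p per comparison were named. Alternatives covered the block, probe set choice, centring, intensity trend, samples fitted, a filter on low values and each array left out. For each comparison, the fit of only its 2 groups equalled the fits without either array of the third group. The alternatives were therefore not all distinct.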

Additional observations from a re-analysis of the deposited data

Results flagged for a closer look

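Steap3 was the one member with both arrays of WT above and both arrays of H483A below both EV arrays, a pattern of opposite sides found in 2.23% of all genes. The difference between the forms was -0.31 (limma adjusted p = 0.928, unadjusted p = 0.0436), and it did not pass the threshold. Of the alternatives that left no single array out, only centring the arrays kept the unadjusted p under 0.05, and it was 0.0568 in limma with the replicate block. The second Steap3 probe set gave -0.22 between the forms, with H483A 0.03 above EV.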

How the results depend on the processing

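The count of 0 members, and of 0 genes in all, past the threshold held in each of the 3 comparisons under all 13 alternatives tried. Leaving out 1 array at a time, the member median ranged from 0.0006 to 0.30 for WT against EV, from -0.0039 to 0.27 for H483A against EV, and from -0.13 to 0.13 between the forms. Mdm4 in WT cells against EV changed from -0.41 to 0.024 with its second brightest probe set, and the cause was not tested. The other alternatives moved no median beyond the spread between arrays (SD 0.12). Replicate numbers are shared between groups in the labels, which do not say that they mark a shared batch. The differences between first and second arrays correlated across genes at r = 0.31 for EV and WT, 0.02 for EV and H483A, and 0.53 for the 2 KDM5A groups. With the replicate block, limma called 0 members (smallest adjusted p 0.998, 0.996 and 0.795). At an unadjusted p under 0.05 there were 6, 3 and 2 members, where 3.92%, 2.76% and 5.07% of all genes passed. Without the block there were 4, 3 and 2, where 2.52%, 1.65% and 3.81% passed. With it, Pmaip1 was among those of both comparisons against EV, and Rrm2b among those for WT against EV. The block lost Ccng1 for H483A against EV (limma unadjusted p = 0.0642) and Steap3 between the forms (0.0568), and gained Eda2r there (0.0162). Of 534 refits of the 42 differences named for 14 members, 36 had the other sign, 29 of them with an array left out. Many of these refits could not change a sign. The block, the intensity trend, the fit of only the 2 groups compared and the filter all keep the difference of group means. So does leaving out an array of the third group. A group left with 1 array was assumed to vary like the others. With 2 arrays per group, signal well above background does not raise the precision.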
